A study of Mus musculus with 14 samples.

Results

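The genes described are 41 mouse genes that encode receptors for glutamate, GABA or glycine, out of 21938 protein-coding genes of the annotation. They were chosen by name, as a list of receptor genes. The rule used no value of theirs, but earlier results of these data were known when the list was made. The comparisons with all genes below are therefore descriptions. They comprise 3 AMPA, 7 NMDA, 5 kainate and 1 delta receptor gene, 7 metabotropic glutamate receptor genes, 10 GABA-A, 3 GABA-A rho and 2 GABA-B receptor genes and 3 glycine receptor genes, on 13 chromosomes. For each gene, the H3K27me3 sites that overlapped 1 kb either side of an annotated transcription start site (the start window) or the gene body, from the first to the last annotated base, were read from a deposited list of sites.

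The sites were measured by H3K27me3 ChIP-seq in iMEF, a line of immortalised mouse embryo fibroblasts. The study asked how histone marks respond to the loss of ASH2L, a core subunit of the complexes that methylate H3K4. In all groups the cells carried a floxed Ash2l gene and a Cre-ER that can be induced, the endogenous gene had been inactivated by removal of exon 4 with 4-hydroxytamoxifen, and a lentiviral human FKBP-HA2-ASH2L replaced it. The study names the cells used for ChIP-seq as a single clone, NG3. The 6 groups, with 2 H3K27me3 libraries each, were untreated control cells (WT in the labels, no dTAG) and cells exposed to dTAG, which triggers degradation of the fusion protein, for 30 min, 2 h, 4 h, 8 h or 16 h, and 2 input libraries were also prepared. The list holds 153983 sites for all samples together, each with its position only. Control and treated cells can therefore not be told apart here, no test could be made, and the values below have no replicate error. The depth behind a site is unknown, and a missing site does not show that the mark was absent.

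Ionotropic receptors are ligand-gated channels assembled from several subunits, each encoded by its own gene. Glutamate-gated channels excite neurons, whereas GABA-A and glycine receptors are chloride channels that mostly inhibit them. The metabotropic glutamate and GABA-B receptors act through G proteins. H3K27me3 is deposited by Polycomb repressive complex 2 and is found over genes that a cell type keeps silent, including many neuronal genes in fibroblasts, and in mammals it often covers CpG-rich promoters. The mark itself does not measure expression, and none was analysed here.

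The promoter sequences below are examples, picked by their start-window sites, and do not span the range of base composition among these genes. They are the 250 bases before the RefSeq start of the gene (GRCm38.p6), written 5′ to 3′ on the strand of the gene, with each CG dinucleotide in capitals. The first 3 genes had the widest start-window sites among the genes with a sequence in the table used. The other 2 are the longest genes with no start-window site. The gene with the widest site of all, Gabrd, is named only.
Gabbr2 (chr4:46991715-46991964, minus strand): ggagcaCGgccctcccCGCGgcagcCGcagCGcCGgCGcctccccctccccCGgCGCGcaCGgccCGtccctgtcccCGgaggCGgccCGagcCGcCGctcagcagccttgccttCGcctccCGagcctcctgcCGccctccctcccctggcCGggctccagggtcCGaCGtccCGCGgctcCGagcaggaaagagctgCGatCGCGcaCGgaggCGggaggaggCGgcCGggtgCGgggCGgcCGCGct
Grin2c (chr11:115267244-115267493, minus strand): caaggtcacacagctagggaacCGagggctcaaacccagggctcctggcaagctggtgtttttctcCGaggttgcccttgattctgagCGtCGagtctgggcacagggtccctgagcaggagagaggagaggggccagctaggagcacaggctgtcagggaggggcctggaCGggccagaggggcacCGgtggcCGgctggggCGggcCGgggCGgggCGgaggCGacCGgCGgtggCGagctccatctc
Grin1 (chr2:25319188-25319437, minus strand): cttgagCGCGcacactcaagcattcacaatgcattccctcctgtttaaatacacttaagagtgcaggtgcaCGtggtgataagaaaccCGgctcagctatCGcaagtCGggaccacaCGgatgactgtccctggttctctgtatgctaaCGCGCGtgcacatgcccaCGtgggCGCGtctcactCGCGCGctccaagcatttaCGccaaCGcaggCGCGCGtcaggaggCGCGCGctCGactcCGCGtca
Grik5 (chr7:25072370-25072619, minus strand): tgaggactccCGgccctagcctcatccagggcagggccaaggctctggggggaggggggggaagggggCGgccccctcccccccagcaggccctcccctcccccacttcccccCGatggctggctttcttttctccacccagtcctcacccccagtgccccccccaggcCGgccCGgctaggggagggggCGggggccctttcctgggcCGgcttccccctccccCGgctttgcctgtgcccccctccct
Gabrr2 (chr4:33062862-33063111, plus strand): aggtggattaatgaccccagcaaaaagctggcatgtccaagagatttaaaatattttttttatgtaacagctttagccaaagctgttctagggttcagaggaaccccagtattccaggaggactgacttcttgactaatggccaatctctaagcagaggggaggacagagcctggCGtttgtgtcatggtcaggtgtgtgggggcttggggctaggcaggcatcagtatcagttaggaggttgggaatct
The first 3 stretches lay wholly inside H3K27me3 sites, and the last 2 held no covered base. The choice of genes by their start-window sites largely fixed this. The sequence of Gabbr2 held 37 CG dinucleotides, that of Grin1 27 and that of Grin2c 15. In Grik5 there were 8, and in Gabrr2 there was 1. GC content was 80.8% in Gabbr2, 75.2% in Grik5, 68.8% in Grin2c, 58.8% in Grin1 and 47.6% in Gabrr2. CG reads the same on both strands and was counted without overlap. At least 1 was present in 92.1% of the 32851 promoters of the same length in the table, whose median was 6 CG. Of the 41 receptor genes, 31 had a promoter in the table. The median was 16 CG (range 4 to 42) in the 17 of these with a start-window site of at least 2 kb, and 8 CG (range 1 to 20) in the 11 with a narrower site only. The 3 genes with no such site had 1 to 8 CG.

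Nearly all of the receptor genes had H3K27me3 at a start site. A start-window site was listed for 38 of 41 genes, or 92.7% (95% Wilson interval 80.6 to 97.5%), against 31.5% of all protein-coding genes. In 26 genes (63.4%, interval 48.1 to 76.4%) a start-window site was at least 2 kb wide, against 16.1% of all, and in 15 genes (36.6%) it reached 5 kb, against 8.69% of all. Sites of at least 10 kb lay at 8 of the receptor genes and at 3.82% of all protein-coding genes. These intervals cover the counting of genes only, and neighbouring genes can share a site. Near the limit of 2 kb, Gabra2 (2112 bp) and Gria1 (2172 bp) were just above it, while Grm3 (1933 bp) and Grin3b (1900 bp) were just below.

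Most of the single start sites were also close to a site. Of 177 annotated start sites of the 41 genes, 133 (75.1%) had a site within 1 kb, against 19.9% of the 93513 start sites of all protein-coding genes. In 26 genes each start site had one, in 12 genes some had one, and in 3 genes none had. The 5′ end of the gene lay inside a site in 31 genes (75.6%), against 16.9% of all. In 23 of these 31 the site reached further into the gene than upstream of it, and in 8 it reached further upstream. The median extension was 3087 bp into the gene and 1049 bp upstream.

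Start-window sites of the receptor genes were wide. The 63 sites had a median width of 2002 bp (quartiles 666 and 7499 bp), against 981 bp for the 11313 start-window sites of all protein-coding genes. The 855 sites that lay in the bodies of the receptor genes only had a median of 465 bp, against 431 bp in all bodies. The medians were thus further apart at the start sites than in the bodies.

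**Figure D1:**
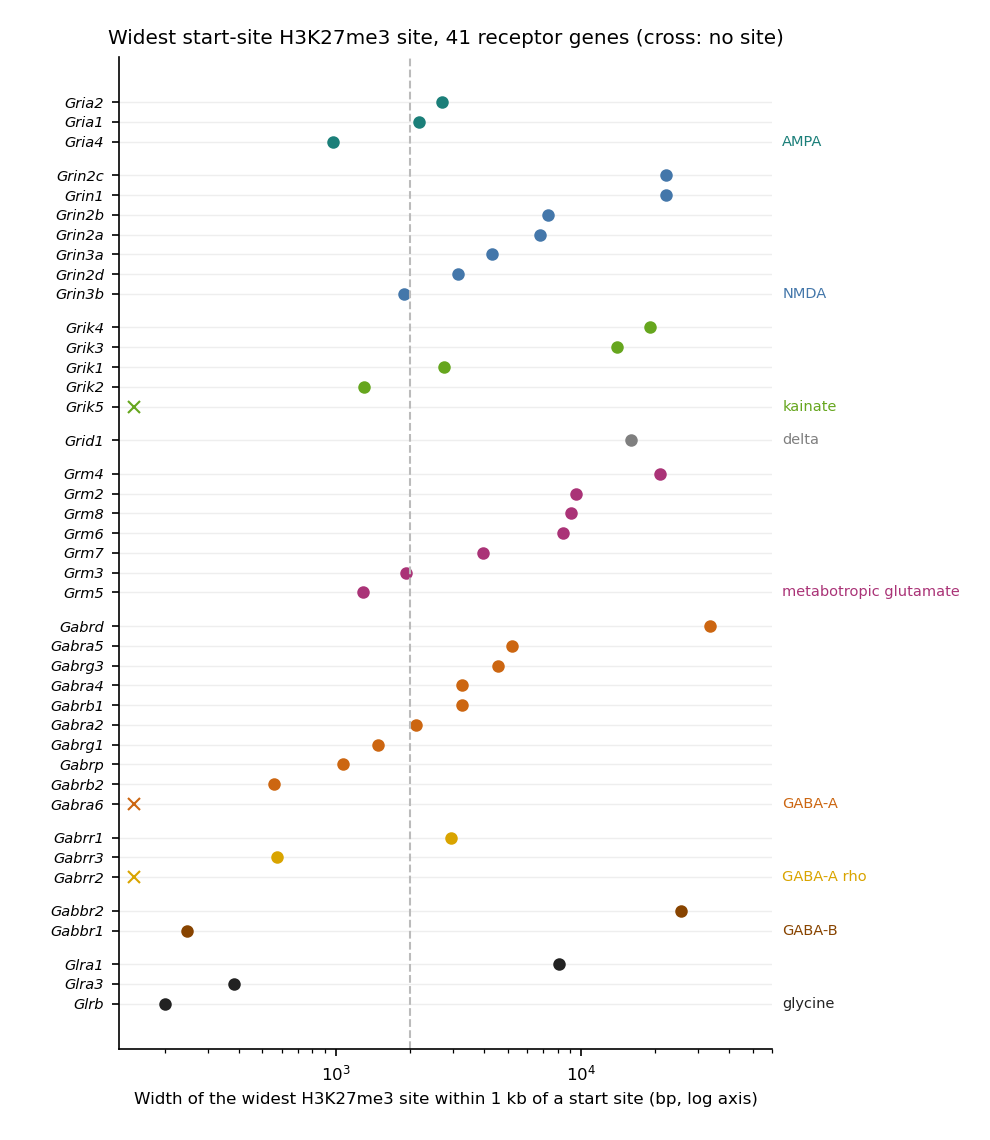
Width in bp (log axis) of the widest H3K27me3 site within 1 kb of a start site of each of the 41 genes, grouped and coloured by receptor class, from the 1 combined list. Crosses mark the 3 genes with no such site and the dashed line marks 2 kb. The widths run from 200 bp at Glrb to 33582 bp at Gabrd.

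Gene length was compared next, because a long gene has more room for a site. Among the 12 receptor genes under 50 kb, 10 (83.3%) had a start-window site, against 29.1% of all protein-coding genes of that length, and 7 (58.3%) had one of at least 2 kb, against 14.8%. Of the 12 genes of 50 to under 200 kb, 11 (91.7%) had a site, against 36.0%, and 7 (58.3%) a wide one, against 17.7%. All 17 genes of 200 kb or more had a site, against 55.0% of all genes of that length, and 12 (70.6%) had a wide one, against 31.2%. The receptor genes were thus above the share of all genes in each length class.

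The share of the gene body inside sites varied widely among the receptor genes. The median was 3.99% (quartiles 1.18 and 35.0%), and 9 genes (22.0%) had at least 50% of the body covered, against 9.35% of all protein-coding genes. Only Gabra6 had no site in either its start windows or its body, 1 of 41 (2.44%) against 52.0% of all. In 8 genes (19.5%) the covered share was under 1%, against 63.0% of all. By length, the median was 39.1% for genes under 50 kb, 2.82% for genes of 50 to under 200 kb and 2.85% for genes of 200 kb or more, and the medians of all protein-coding genes in these classes were 0%, 0.510% and 0.643%. Across the 41 genes, Spearman's correlation of covered share with gene length was -0.37, and it was 0.15 across all 21938 genes. The width of the widest start-window site had a correlation of only 0.11 with length. Genes are not independent replicates, and these values describe the list.

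**Figure D2:**
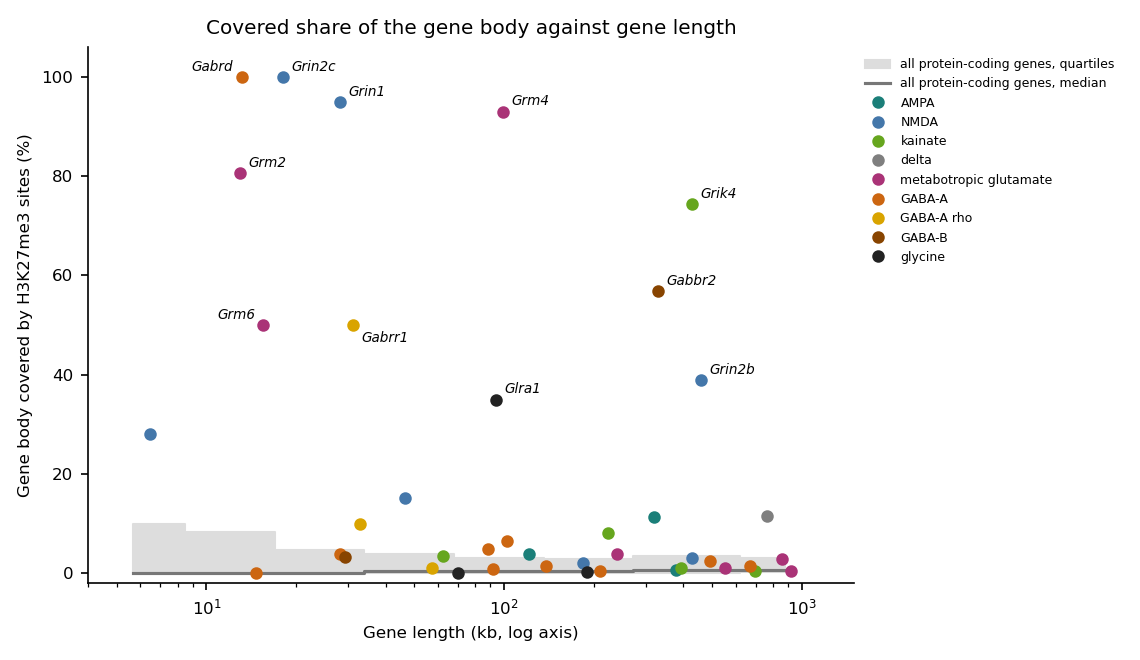
Share of the gene body covered by H3K27me3 sites (%) against gene length (kb, log axis). Points are the 41 receptor genes, coloured by class, and the grey line and band are the median and quartiles of all protein-coding genes in bins of length. Grik4, Gabbr2 and Grin2b stand far above the other genes longer than 200 kb.

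Most of the covered bases came from few genes. In total 1175 kb of the 9934 kb of receptor gene bodies were covered, or 11.8%, against 6.81% of the bodies of all protein-coding genes. Grik4 contributed 317 kb, Gabbr2 187 kb, Grin2b 180 kb, Grm4 92.1 kb and Grid1 88.8 kb. The first 2 genes together held 42.9% of the covered bases and all 5 held 73.6%. The pooled share therefore says little about a typical gene of the list.

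**Figure D3:**
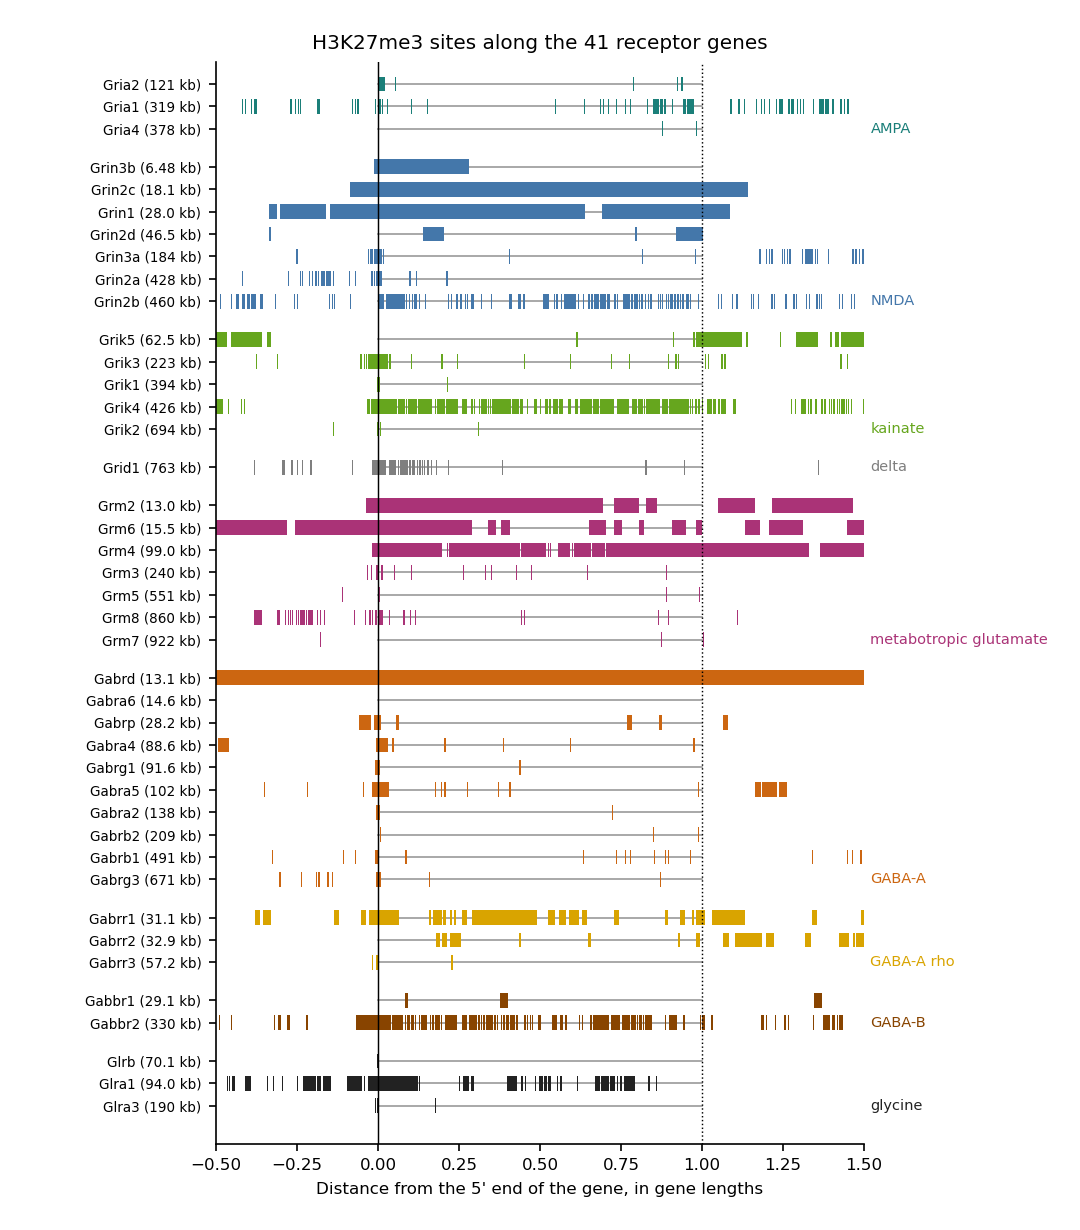
Position of every H3K27me3 site (coloured boxes) along the 41 receptor genes, each drawn from its 5′ end at 0 to its 3′ end at 1 on a scale of its own gene length, with 0.5 gene lengths on either side. Gene lengths in kb stand beside the names. Boxes pile up at the 5′ ends, and Gabrd, Grin2c, Grin1 and Grm4 are filled almost throughout.

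The AMPA receptor genes encode the channels of fast excitatory transmission. All 3 had a start-window site. The widest was 2695 bp at Gria2, which encodes the subunit that limits calcium entry, 2172 bp at Gria1 and 974 bp at Gria4. The bodies were covered to 11.3% in Gria1 (53 sites), 3.85% in Gria2 (6 sites) and 0.621% in Gria4 (6 sites). None of the 3 genes had a start-window site of 5 kb. In Gria2 the start-window site reached 2641 bp into the gene and only 53 bp upstream.

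NMDA receptors are calcium-permeable channels that need the subunit encoded by Grin1 together with Grin2 or Grin3 subunits. This class was among the most covered, with start-window sites at 7 of 7 genes, of at least 2 kb at 6 of them, and a median covered share of 28.1%. Grin1 (28.0 kb) had a 22056-bp site at chr2:25301288-25323343 and a second one of 11075 bp, which also overlapped Lrrc26 and Tmem210, and 94.9% of its body was covered. Grin2c (18.1 kb), whose subunit is typical of the cerebellum, lay wholly inside 1 site of 22233 bp at chr11:115246600-115268832. That site also overlapped the neighbouring genes Fdxr and Tmem104, so it cannot be assigned to Grin2c alone.

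The longer NMDA receptor genes had another layout. Grin2b (460 kb) held 196 sites, the highest number among the receptor genes, which covered 39.0% of its body, and it ranked 32 of the 998 protein-coding genes of 200 kb or more by covered share. Its start-window sites were 7297 bp and 1146 bp wide. Grin2a (428 kb) had a start-window site of 6781 bp and 13 sites in all, which covered 3.02%. The covered shares of these genes of like length thus differed widely. Grin3a (184 kb), with a site of 4326 bp, was covered to 2.17%, and Grin3b (6.48 kb), with a site of 1900 bp, to 28.1%. Grin2d (46.5 kb, 15.2% covered) differed from the others in that its 5′ end lay 6388 bp from the nearest site. A 3149-bp site was found at 1 of its 3 start sites instead.

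Kainate receptors are made of Grik1 to Grik3 subunits, which can form channels on their own, and of Grik4 and Grik5 subunits, which need a partner. Of these 5 genes, 4 had a start-window site. Its width was 13988 bp at Grik3, 2745 bp at Grik1 and 1300 bp at Grik2. At Grik4 the widest of 4 start-window sites was 18974 bp, and the gene (426 kb) held 146 sites that covered 74.4% of its body, rank 3 of 998. This was the highest covered share among the receptor genes of 200 kb or more. In Grik3 it was 8.18%, in Grik1 1.10% and in Grik2 0.486%.

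Grik5 was the exception in this class. None of its 7 start sites had a site, and the nearest one to its 5′ end was 20689 bp away, outside the gene. Its body (62.5 kb) was covered to 3.48% by 5 sites, the widest of which (8315 bp) lay over its 3′ end. In contrast, 61.8% of the 100 kb upstream and 54.9% of the 100 kb downstream of Grik5 were covered. Grik4 and Grik5, whose subunits both need a partner, thus had the widest start-window site of the class and none, although the covered share of Grik5 was the median of the class.

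The delta receptor gene Grid1, whose product binds cerebellins at synapses rather than acting as a typical glutamate-gated channel, is 763 kb long. It had a 15880-bp site that reached 9144 bp upstream and 6735 bp into the gene, and 78 sites covered 11.6% of its body. These lay mainly in its first part. From 5 to 20 kb after the 5′ end 84.4% of bases were covered and from 20 to 100 kb 58.7%, but beyond 100 kb the share was 3.65%.

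The 7 metabotropic glutamate receptor genes all had a start-window site, which was at least 2 kb wide in 5. Among them, Grm4, Grm6, Grm7 and Grm8 encode group III receptors, Grm2 and Grm3 group II receptors, which like group III inhibit adenylyl cyclase, and Grm5 a group I receptor, which activates phospholipase C. Grm4 (99.0 kb) had a 20934-bp start-window site at chr17:27501898-27522831 and was covered to 93.0%. A further site of 61983 bp began inside Grm4 and ran past its 3′ end, and no other site that lay in protein-coding gene bodies outside start windows was wider. Grm2 (13.0 kb, 9504-bp site) was covered to 80.6% and Grm6 (15.5 kb, 8453-bp site), which acts in bipolar cells of the retina, to 50.0%.

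The long metabotropic receptor genes had low covered shares over the body as a whole. Grm7, at 922 kb the longest of the 41 genes, had a 3989-bp start-window site and 5 sites in its body, which covered 0.439%. Grm8 (860 kb) had a wider start-window site of 9104 bp and a covered share of 2.85%, and 54.7% of its bases from 5 to 20 kb and 11.1% from 20 to 100 kb after the 5′ end were covered. In Grm5 (551 kb) the site was 1283 bp wide and 1.18% was covered. Grm3 (240 kb) had a 1933-bp site, and 26 sites covered 4.01%, with 3.67% beyond 100 kb. Group III thus contained both the most covered and the least covered gene of this class. The other genes among the 5 longest were Grid1, Grik2 (694 kb) and Gabrg3 (671 kb).

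GABA-A receptors are pentamers, mostly of alpha, beta and gamma subunits. Of 10 genes, 9 had a start-window site, 6 had one of at least 2 kb, and the median covered share was 2.02%. Gabrd, which encodes the delta subunit of receptors outside synapses, stood apart. It is 13.1 kb long and lay wholly inside a site of 33582 bp at chr4:155371116-155404697, the widest start-window site of all 41 genes, which overlapped no other protein-coding gene. The remaining 8 genes with a site had widths of up to 5202 bp. In no gene of the class other than Gabrd did the covered share exceed 6.50%.

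Among the alpha subunit genes, the widest start-window site was 5202 bp at Gabra5, where it reached into another protein-coding gene, 3275 bp at Gabra4 and 2112 bp at Gabra2. Their bodies were covered to 6.50%, 4.93% and 1.41%. Gabra6, whose subunit is typical of cerebellar granule cells, had no site at its 3 start sites or in its body (14.6 kb). The nearest site was 100163 bp from its 5′ end, and none lay in the 100 kb on either side of the gene. It was also among the genes with the lowest GC content, 35.8% in the body and 38.7% in the 500 bp either side of the 5′ end.

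Gabra4 and Gabrb1 are transcribed away from each other, overlap at their 5′ ends by 196 bp, and shared the 3275-bp site. It was the only one of the 63 start-window sites that belonged to a pair of the listed genes. Gabrb1 (491 kb) had a further start-window site of 2882 bp at its other start site, and 28 sites covered 2.54% of it. Gabrb2 had only a 559-bp site, 1478 bp away from its 5′ end, and 0.572% was covered. For the gamma subunits, which place receptors at synapses, the site was 4571 bp wide at Gabrg3 and 1486 bp at Gabrg1, with 1.49% and 0.942% covered. Gabrp, which encodes the pi subunit found mainly outside the nervous system, had sites of 1071 bp and 680 bp and 3.99% covered.

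The rho subunits form GABA-gated channels best known from the retina. Gabrr1 (31.1 kb) had a 2929-bp start-window site, and 17 sites covered 50.0% of it. Gabrr3 (57.2 kb) had start-window sites of 572 bp and 200 bp and 1.05% covered. None of the 4 start sites of Gabrr2 (32.9 kb) had a site, the nearest was 5902 bp inside the gene, and 7 sites covered 10.0%. Gabrr2 and Gabrr1 are neighbours on chromosome 4, and 31.5% of the 36.7 kb between them was covered. The gap from Gabra6 to Gabrb2 (98.7 kb), in contrast, held no site, and the gaps between Gabrg1 and Gabra2 (115 kb) and between Gabra2 and Gabra4 (474 kb) were covered to 0.852% and 0.580%. Between Gabrg3 and Gabra5 (20.5 kb) the share was 14.4%.

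The GABA-B receptor is an obligate dimer in which the Gabbr1 product binds GABA and the Gabbr2 product couples to the G protein. Their genes differed strongly. Gabbr2 (330 kb) had a site of 25565 bp at chr4:46987681-47013245, which reached 21372 bp upstream and 4192 bp into the gene. All 4 start sites of Gabbr2 had a site, and 136 sites covered 56.8% of its body, rank 10 of 998. Of the 11 start sites of Gabbr1 (29.1 kb), 1 had a site, which was 247 bp wide, and 3.28% of the body was covered. Both genes had CpG-rich promoters.

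Glycine receptors are inhibitory channels mainly of the spinal cord and brainstem. Glra1, the adult alpha subunit gene, had an 8079-bp site, and 25 sites covered 35.0% of its 94.0 kb. At Glra3 the site was 384 bp wide and 0.270% was covered. Glrb, whose product anchors the receptor to gephyrin, had a 200-bp site, the smallest width in the list, 27 bp upstream of its 5′ end, and no site in its body. Glra3 and Glrb were among 6 receptor genes whose start-window sites were all under 1 kb, with Gria4, Gabrb2, Gabrr3 and Gabbr1.

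Grouped by ligand, 22 of 23 glutamate receptor genes and 13 of 15 GABA receptor genes had a start-window site. It was at least 2 kb wide in 17 (73.9%, interval 53.5 to 87.5%) and 8 (53.3%, interval 30.1 to 75.2%). These intervals cover the counting of genes only, and the difference was not tested. The median covered share was 8.18% in the former and 3.28% in the latter. By mode of action, 29 of 32 channel subunit genes and 9 of 9 G protein-coupled receptor genes had a site, with a median covered share of 3.92% and 4.01%. Both ligand classes and both modes of action included genes covered to over 50% and genes covered to under 2%.

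The covered share of the receptor genes fell with distance from the 5′ end. In the first 1 kb of the gene a mean of 73.1% of bases was covered, against 17.3% in all protein-coding genes. In the 1 kb upstream it was 64.4% (all genes 15.1%), from 1 to 5 kb 47.5% (13.7%), from 5 to 20 kb 27.5% (9.54%), from 20 to 100 kb 15.9% (7.45%) and beyond 100 kb 9.70% (5.06%). The means of the receptor genes were thus above those of all genes at each of these distances. The medians were lower, 4.72% from 5 to 20 kb, 2.66% from 20 to 100 kb and 0.716% beyond 100 kb, where those of all genes were 0%, 0% and 0.237%. Beyond 100 kb the mean rested on Grik4 (70.9%), Gabbr2 (49.7%) and Grin2b (38.5%), and without these 3 genes it was 2.86% over the other 19 genes. In contrast, from 20 to 100 kb upstream the mean was 10.0% in the receptor genes and 11.1% in all genes. Within receptor genes of 200 kb or more, 87.6% was covered in the first 1 kb and 11.2% beyond 100 kb, against 33.6% and 4.43% in all genes of this length. Beyond 100 kb the medians were 0.743% and 0.430%, and without the same 3 genes the mean of the receptor genes was 2.27% (14 genes). No gene was left out of the mean of all genes, so the 2 cannot be compared.

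**Figure D4:**
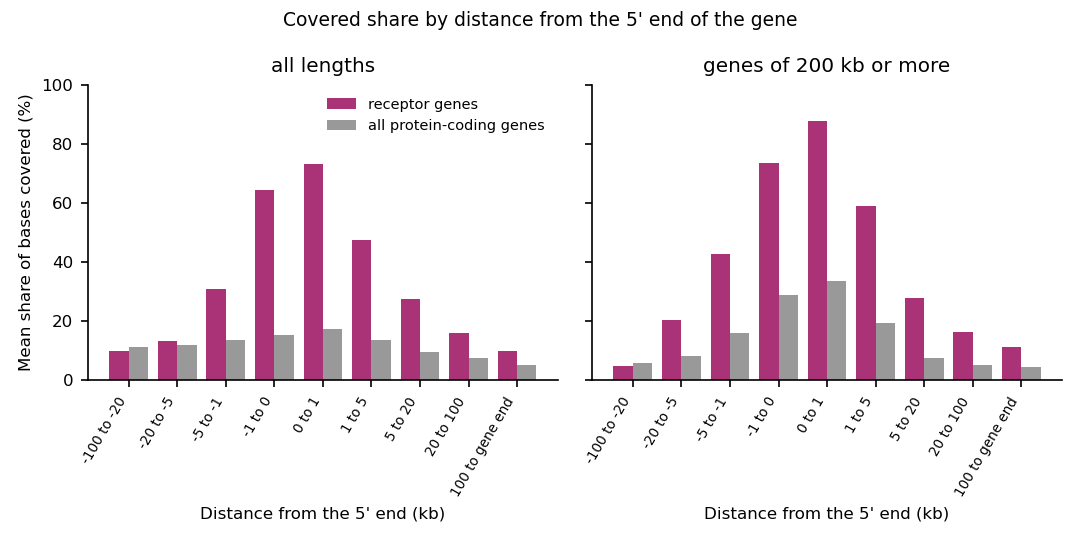
Mean share of bases covered by H3K27me3 sites (%) in intervals of distance from the 5′ end of the gene (kb, negative values upstream), for receptor genes and for all protein-coding genes. The left panel has genes of all lengths (41 and 21938) and the right panel genes of 200 kb or more (17 and 998). Bars are means over the genes that reach the interval, and those of the receptor genes are highest in the first 1 kb.

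Exons were covered more than introns. Over the receptor genes, 31.6% of exon bases and 11.2% of intron bases were covered, and the exon share was the higher one in 32 genes and the lower one in 5. Because first exons lie under the start-window sites, the comparison was repeated beyond the first 5 kb of each gene. There 24.9% of exon bases and 10.6% of intron bases were covered, and the exon share was higher in 28 genes and lower in 8. In all protein-coding genes the shares beyond 5 kb were 9.25% and 5.79%.

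The receptor genes also differed in base composition. Across the 41 genes, Spearman's correlation of covered share with GC content of the body was 0.83, and across the 17 genes of 200 kb or more it was 0.84. For all protein-coding genes it was 0.18. GC content was itself related to length (correlation -0.49 across the 41 genes). All points come from the same libraries, and GC content can affect the recovery of reads, whose part in this relation was not tested. None of the 17 receptor genes with a GC content under 40% was covered to 10%, while 13 of the 16 genes with 45% or more were. Among all protein-coding genes these shares were 2.87% and 32.0%. The limits of 40% and 45% were chosen after the values were seen. Grik5, with 51.5% GC and 3.48% covered, and Gabbr1, with 48.8% GC and 3.28% covered, lay far from the trend.

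**Figure D5:**
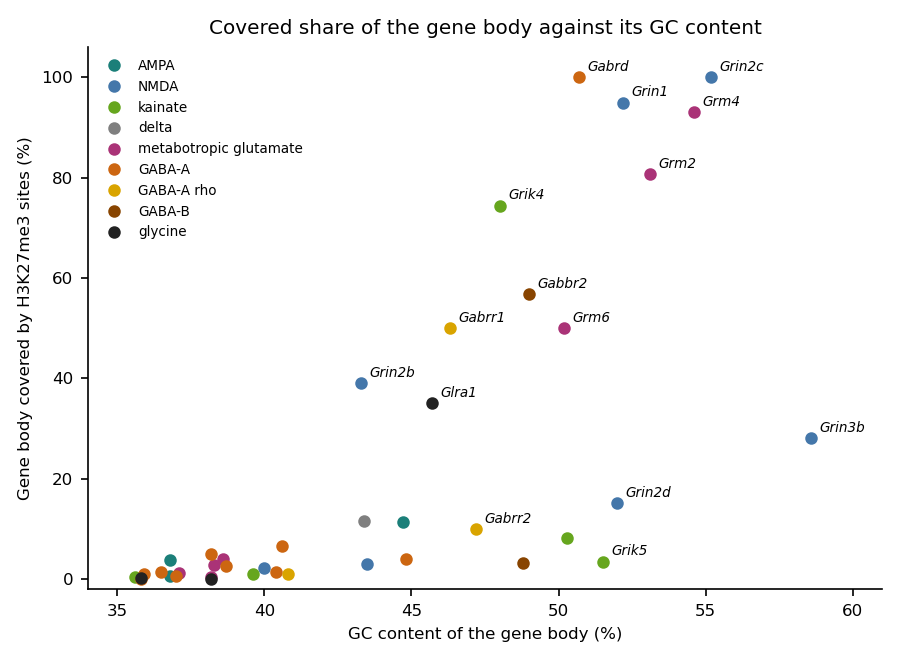
Share of the gene body covered by H3K27me3 sites (%) against GC content of the body (%) for the 41 receptor genes, coloured by class. Each point is 1 gene of the 1 combined list. Genes under 40% GC lie below 5% covered, and of the 9 genes covered to at least 50%, Gabrr1 has the lowest GC content, 46.3%.

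Promoter composition was compared as well. A CpG-rich promoter, defined by 50% or more GC and 0.6 or more of the CpG expected from base content in the 500 bp either side of the 5′ end, was found in 20 of the 41 genes. All 20 had a start-window site, and in 16 (80.0%) it was at least 2 kb wide, against 14.3% of all protein-coding genes with such promoters. Of the 21 receptor genes with other promoters, 18 had a site, which was at least 2 kb wide in 10 (47.6%), against 17.5%. Among all protein-coding genes 25.5% of CpG-rich and 36.3% of other promoters had a site. Spearman's correlation of this observed to expected CpG ratio with the width of the widest start-window site was 0.54 for the receptor genes and -0.08 for all genes.

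Other genes of the same transmitter systems were examined as a list of 48 genes. Of these, 35 (72.9%) had a start-window site and 24 (50.0%) one of at least 2 kb, with a median covered share of 10.1%. The values for all protein-coding genes were 31.5%, 16.1% and 0%. A site was present at 5 of 7 genes for vesicular transport and transmitter synthesis, 6 of 9 for uptake, 12 of 15 for auxiliary subunits and 12 of 17 for scaffolds and synaptic organisers. The widest lay at Slc32a1, the vesicular transporter of GABA and glycine (29609 bp), at Shank1, a scaffold of excitatory synapses (23374 bp), at Gad1, which makes GABA (14970 bp), and at Shisa9, an AMPA receptor auxiliary subunit (13674 bp).

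Genes typical of fibroblasts and of neurons were also looked up, because the cells are labelled as fibroblasts. Of 8 fibroblast genes, 2 had a start-window site, Col1a1 (389 bp) and Vim (363 bp), and none had one of 2 kb. Of 6 neuronal genes, 5 (83.3%, interval 43.6 to 97.0%) had a start-window site, which was at least 2 kb wide in 3 (50.0%). So few genes cannot check the cell type. Expression of the marker genes was not analysed here.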

How the data were processed

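H3K27me3 ChIP-seq reads of iMEF cells were processed by the authors, who used Trim Galore, BWA with mm10 (GRCm38.p6), samtools, Picard to merge replicates, and MACS (MACS2 in the submitters' processing notes) to call broad peaks. Versions, thresholds and the merging rule are not given in the sources used here. The deposited positions of 153983 sites carry no count, score or other value per library, and 0 columns of values per library were left unassigned. Of these sites, 153878 lay on assembled chromosomes. Deposited starts count from 0 and ends are exclusive. Printed positions count from 1.

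Genes, start sites and exons were taken from GENCODE M21, an earlier release than that of the study, and base composition and promoter sequences from the RefSeq GRCm38.p6 files. RefSeq placed none of the 41 genes on a patch sequence, but it listed 3 further copies of Gabbr1 and 1 of Grm4 on alternate sequences, and their effect on read placement was not tested. Overlaps of 1 base or more counted as a site. Computation used Python 3.11.15, numpy 2.4.6, scipy 1.17.1 and pysam 0.24.0. Functions were tested on simulated data. Wilson intervals (95%) cover counting only.

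The members, the other gene lists and the measures were chosen with earlier results of these data known. All 41 genes are described. In full are given the 5 with the widest start-window site, the 5 with the highest covered share, the 5 longest and those with no site, and of the other transmitter genes the 4 with the widest site. Sequences were planned for the 3 widest and the 2 longest without a site. Grin1 was added after the values were seen, as Gabrd had no sequence. The intervals of distance, the comparison of exons beyond 5 kb, the GC limits and the means without 3 genes were also chosen after seeing the data.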

Additional observations from a re-analysis of the deposited data

How the results depend on the processing

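No paired analysis was possible because only positions over all samples together are listed, so leaving out a replicate could not be tried either. The number of receptor genes with a start-window site ranged from 32 (only sites of at least 1 kb) to 39 (window of 2 kb), and was 35 when only the 5′ end of the gene was used. The number with a site of at least 2 kb ranged from 25 to 30. The median covered share ranged from 2.18% (only sites of at least 1 kb) to 10.7% (sites closer than 5 kb joined), and was 3.54% without the first 1 kb of the body. The relation with length, whose alternatives were added after seeing the data, had a correlation of -0.26 to -0.36.

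The median width of sites in start windows and bodies was 487 bp. It moved to 630 bp and 784 bp when sites closer than 1 kb or 5 kb were joined, and to 1168 bp and 2331 bp with only sites of at least 500 bp or 1 kb. The median of 6.78 sites per 100 kb moved to 2.62 with sites closer than 5 kb joined, and to 2.26 and 0.895 with the 500-bp and 1-kb limits. With these limits 2 and 7 receptor genes, instead of 1, had no site. The share of all protein-coding genes with a start-window site moved from 31.5% to 20.1% with the 1-kb limit. Joining at 5 kb raised the covered share of 20 genes by more than 1.5 times, and the 1-kb limit lowered it in 26. Joining also raised the width of the widest start-window site by more than 1.5 times, in 19 genes at 1 kb and in 29 at 5 kb. Gabrd went from 33582 to 99278 bp under both. At 5 kb Grm4 (235192 bp), Gabbr2 (164330 bp), Grik4 (141168 bp) and Grid1 (100458 bp) were wider than Gabrd. The study aimed at a minimum of raw reads per sample. The depth behind each site and the peak threshold are unknown, which limits all of these values.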
